A study of Homo sapiens with 3 samples.

Results

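SR splicing factors are RNA-binding proteins with a domain rich in arginine-serine repeats. They bind enhancer sequences in exons and help U1 snRNP and U2AF to find the splice sites nearby. Many SR genes control their own mRNA through poison exons, whose inclusion marks the transcript for decay, and in mouse cells SRSF3 and SRSF7 also affect which pA (cleavage and polyadenylation site) of a 3ʹ untranslated region is used. Here the genes were chosen by name, as 10 SR and SR-like factors: SRSF1, SRSF2, SRSF3, SRSF4, SRSF5, SRSF6, SRSF7, SRSF11, TRA2A and TRA2B. This choice, and that of the other gene list below, was made with earlier results of these data known. The table analysed here gave values for 7 of the 10 genes, with 51 of its 31565 pAs and out of 9431 genes. SRSF1, SRSF3 and TRA2B were not analysed here.

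The data are 3ʹREADS libraries of nuclear RNA from RKO, an established human colon carcinoma cell line. In 3ʹREADS, each read marks the pA of 1 polyadenylated RNA fragment. The groups were unirradiated RKO cells (0 h) and RKO cells that recovered for 0.5 h or 2 h after ultraviolet (UV) irradiation, with 1 library each. Without replicates, every test below compares the reads of 2 libraries, not 2 conditions, and every interval (95%) covers counting error only: PCR copies of a molecule were not told apart by a molecular identifier. The libraries held 433261, 501838 and 438040 reads at 0, 0.5 and 2 h, and values are in RPM, the reads of a pA or gene scaled to a common library total. On this scale 1 read is 2.31, 1.99 and 2.28 RPM. Intronic pAs took 6.86%, 6.0% and 8.46% of the reads of the table. Of 10 colon epithelium markers, 4 had reads (EPCAM, KRT8, KRT18 and CDX1), with sums of 32.3, 25.9 and 68.5 RPM, while CDX2, CDH1, VIL1, KRT19, KRT20 and LGALS4 had no values in the table analysed here. KRT8 held 26 of the marker reads at 2 h, when EPCAM had 0, and the part of this in the results below was not tested. The labels give RKO as poorly differentiated. The 6 fibroblast markers likewise had no values.

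The SR genes differed widely in level. SRSF2, SRSF6 and SRSF7 together gave most of the reads, and SRSF4, SRSF5, SRSF11 and TRA2A stayed at 22 reads or fewer in every library. Summed over the 7 genes there were 328, 277 and 313 reads at 0, 0.5 and 2 h, which is 757, 552 and 715 RPM. Of these reads, 1, 0 and 34 ended at intronic pAs, which gives shares of 0.305% (0.00772–1.69%), 0% (0 of 277 reads, which allows up to 1.08%) and 10.9% (7.64–14.8%). SRSF6 alone gave 16 of the 34, and the pooled intervals do not cover differences between genes. Here and below, what a 0 allows is 3 over the number of reads, which differs from the upper end of the exact interval (1.32% for 0 of 277). The observed intronic RPM of the 7 genes at 2 h was 13.0 times that of the 3 reads that 0 allows at 0.5 h. This ratio leaves out the counting error at 2 h. Low levels limit what can be seen in SRSF4, SRSF5, SRSF11 and TRA2A. In bulk RNA, fewer cells with a transcript and less of the transcript per cell cannot be told apart.

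Intronic pAs of SR genes were used almost entirely in the 2 h library. SRSF6, which encodes the splicing regulator SRp55, showed the largest number of such reads, followed by SRSF7 and SRSF11. Of the SRSF6 reads, 1 of 60 was intronic in the 0 h library, 0 of 63 in the 0.5 h library and 16 of 75 in the 2 h library. Its intronic share was therefore 1.67% (exact Clopper-Pearson interval 0.0422–8.94%), 0% (0 of 63 reads, which allows up to 4.76%) and 21.3% (12.7–32.3%). The 2 h library stood apart from the other libraries, whose intervals lay below that of 2 h. The observed intronic RPM at 2 h was 6.11 times that of the 3 reads that a count of 0 allows at 0.5 h. Counting error at 2 h is not part of this ratio. Intronic and 3ʹ-most-exon reads were compared with a two-sided Fisher's exact test over all genes of the table, and a gene was called where p was under 0.05 and its share changed by more than 5 points (%). The SRSF6 share rose by 21.3 points in the 0.5–2 h window (p = 2.66e-05, adjusted p = 0.00157, Fisher's exact test with Benjamini-Hochberg adjustment) and by 19.7 points between 0 and 2 h (p = 4.35e-04, adjusted p = 0.0123). The 3ʹ-most-exon reads of SRSF6 were 59, 63 and 59, with an RPM ratio of 2 to 0.5 h of 1.07 (0.739–1.56). RPM is relative to the library total, so these reads do not show whether the amount of RNA per cell stayed the same. Whether intronic ends replaced ends in the 3ʹ-most exon was not tested.

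**Figure D1:**
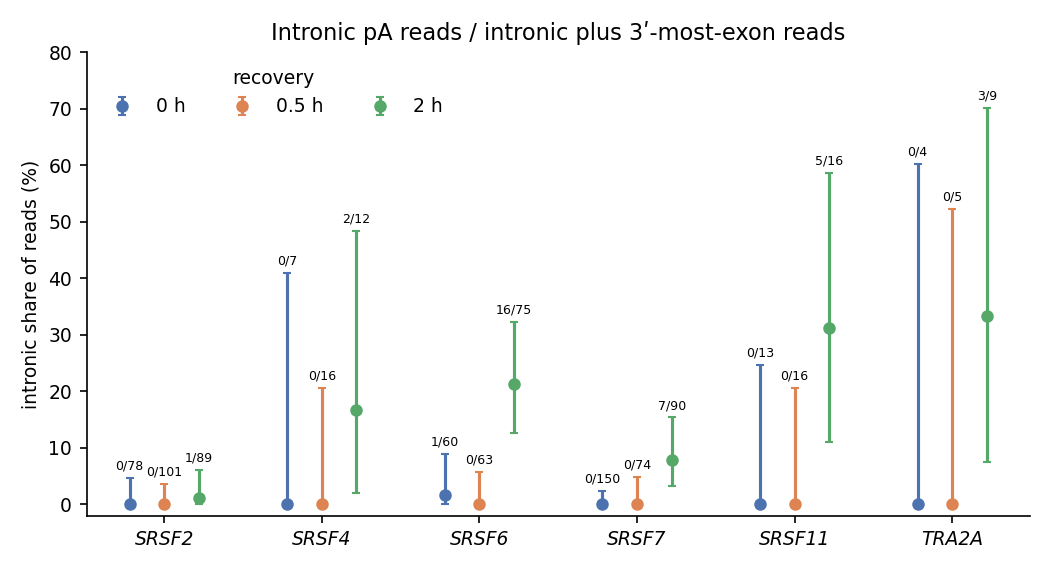
Intronic share of the intronic plus 3ʹ-most-exon reads (y axis, %) of the 6 SR genes with listed intronic pAs (x axis) at 0, 0.5 and 2 h, with exact 95% Clopper-Pearson intervals and, above each, intronic over all reads. In SRSF6, SRSF7, SRSF11, SRSF4 and TRA2A the 2 h point is above the other points, and the intervals are wide where a gene has few reads.

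SRSF7, a factor also known as 9G8 with a zinc knuckle beside its RNA recognition motif, had 0 of 150, 0 of 74 and 7 of 90 intronic reads in the 0, 0.5 and 2 h libraries. By the 3-read limit the zeros allow shares of up to 2% and 4.05% (upper ends of the exact intervals 2.43% and 4.86%). The 2 h share was 7.78% (3.18–15.4%). The rise passed the test in the 0.5–2 h window (p = 0.0167, Fisher's exact test), but not after adjustment over all genes (adjusted p = 0.142). Against 0 h it passed with adjustment as well (p = 8.97e-04, adjusted p = 0.0203, Fisher's exact test). The observed intronic RPM at 2 h was 2.67 times that of the 3 reads that 0 allows at 0.5 h, leaving out counting error at 2 h. The direction was that of SRSF6, at a lower share.

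SRSF11, an SR-like protein also called p54, had 0 of 13, 0 of 16 and 5 of 16 intronic reads at these times. The 2 h share was 31.2% (11.0–58.7%), while the zeros allow up to 23.1% and 18.8%. These ranges overlap. SRSF11 was called in the 0.5–2 h window (p = 0.0434, Fisher's exact test) and between 0 and 2 h (p = 0.0476), with adjusted p = 0.246 and 0.260.

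The remaining genes gave no call. TRA2A, a homologue of the fly sex determination factor transformer 2, had 0 of 4, 0 of 5 and 3 of 9 intronic reads (p = 0.258 for 0.5–2 h, Fisher's exact test). SRSF4, the long SR protein SRp75, had 0 of 7, 0 of 16 and 2 of 12 (p = 0.175, Fisher's exact test). SRSF2, the nuclear speckle protein SC35, was more deeply covered and had 0 of 78, 0 of 101 and 1 of 89, so its intronic share at 2 h was at most 6.10% at the upper bound of its interval. No intronic pA is listed for SRSF5 (SRp40), and no SR gene had a listed upstream-exon pA.

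In the 0.5–2 h window, 3 of 6 testable SR genes had raised intronic shares, beside 15.7% of 3415 testable genes, and 1 of 6 after adjustment, beside 5.68%. From 0 to 2 h, 3 of 6 were called, beside 15.7% of 3548 genes, and 2 of 6 after adjustment, beside 5.64%. By 0.5 h, SRSF6 alone was testable, with a single intronic read at 0 h, and 0 of 1 rose, beside 6.20% of 2612 genes. A gene without intronic reads at the earlier time can only rise, and this held for all 6 genes at 0.5 h. The median change between 0.5 and 2 h was 19 points over the 6 genes and 9.09 points over all testable genes. Without intronic reads at 0.5 h, the 6 genes were testable only through their intronic reads at 2 h. Their change is then their 2 h share, while other genes can fall. At 0 h SRSF6 alone of the 6 genes had an intronic read, so the other genes carry the same limit from 0 to 2 h. The counts beside all genes and the 2 medians are therefore given as a description. Both later windows use the same 2 h library.

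The intronic reads were spread over many positions. Of 16 listed intronic pAs in SR genes, 15 had reads at 2 h and in neither other library, which is 93.8%, beside 48.1% of 9772 intronic pAs of all genes with 3ʹ-most-exon pAs. These 15 pAs are in the table through their 2 h reads alone, and 8 of the 16 hold a single read, which can fall in only 1 library. The share over all genes was not matched on reads, so the difference between these shares is given as a description. SRSF6 carried 8 of the 16, on chromosome 20 (plus strand, hg19), within 1780 nt and between 1345 and 3125 nt upstream of its most abundant pA at chr20:42090331. At 2 h, 7 of the 8 pAs had reads, with 5 at chr20:42088222, 4 at chr20:42087513, 3 at chr20:42088184 and 1 at each of the others. Of these, chr20:42088184 and chr20:42088222 lie close together, 2147 and 2109 nt upstream of the most abundant pA, and how pAs were clustered is not known. No single listed pA made up the SRSF6 change. The most used one alone did not pass the test (7.81% of its reads and those of the 3ʹ-most exon at 2 h, p = 0.0576 for 0.5–2 h, Fisher's exact test).

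In SRSF7, 6 of the 7 intronic reads at 2 h were at 1 position. On chromosome 2 (minus strand), its intronic pA at chr2:38975041, 3006 nt upstream of the most abundant pA, had 0, 0 and 6 reads, and chr2:38976654 had 0, 0 and 1. The first position passed the test on its own in the 0.5–2 h window (p = 0.0323, adjusted p over all intronic pAs 0.356, Fisher's exact test) and between 0 and 2 h (p = 0.00239, adjusted p = 0.0894). Its share at 2 h was 6.74%, below the 7.81% of the most used SRSF6 intronic pA, and the 2 genes were not tested against each other. The SRSF7 position was the 1 called intronic pA of 15 testable in SR genes in the former window, beside 9.14% of 6879 intronic pAs, and of 16 in the latter, beside 9.47% of 7177.

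The intronic pAs of SRSF11 and TRA2A lay far from the gene end. In SRSF11 (plus strand) chr1:70692291 and chr1:70690110 were 25393 and 27574 nt upstream of the most abundant pA and had 2 and 3 reads at 2 h. In TRA2A (minus strand) chr7:23567508 and chr7:23568874 were 23109 and 24475 nt upstream and had 2 and 1 reads. The SRSF4 intronic pA (chr1:29477521, minus strand) was 3123 nt upstream, with 2 reads. The intronic pAs of SRSF2, SRSF4, SRSF6 and SRSF7 were all within 4619 nt of the most abundant pA. In SRSF2, a pA assigned to the 3ʹ-most exon (chr17:74732302, 1 read at 2 h) lies upstream of the intronic pA at chr17:74732150, which also had 1 read.

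**Figure D2:**
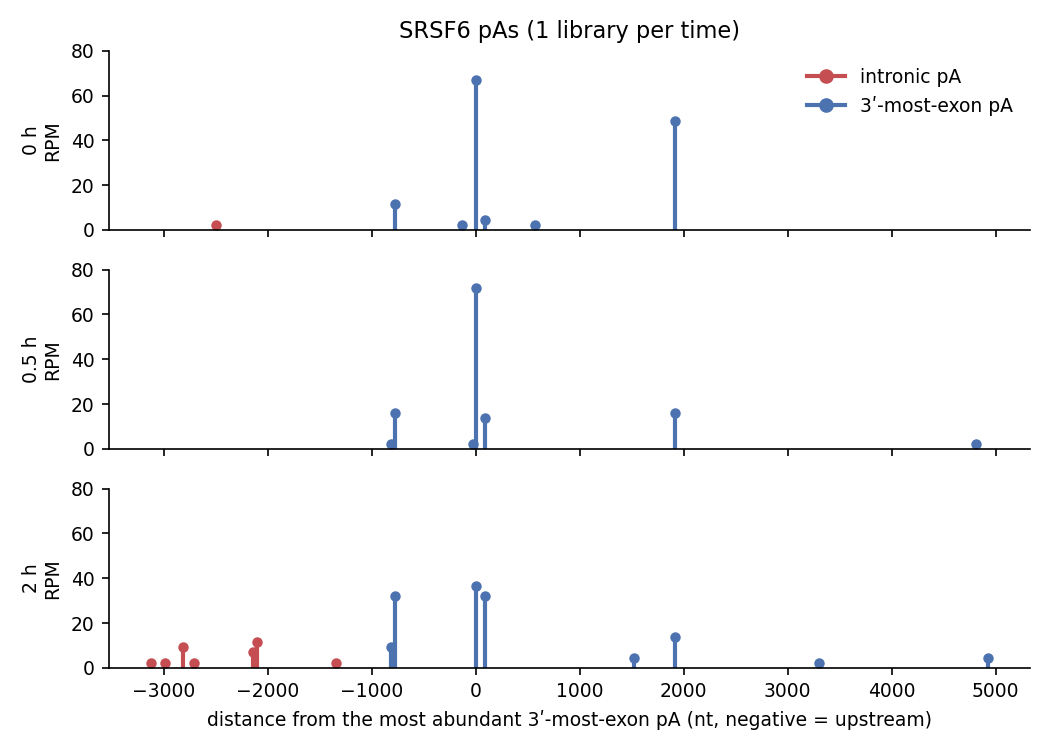
Level of each SRSF6 pA (y axis, RPM) against its distance from the most abundant 3ʹ-most-exon pA (x axis, nt, negative upstream), with 1 panel for each library and intronic pAs in red. Intronic pAs hold 1, 0 and 16 reads in the 0, 0.5 and 2 h panels, and the pA 1914 nt downstream is highest at 0 h (1 pA with 1 read at 0.5 h, 11186 nt downstream, lies outside the plot).

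Within the 3ʹ-most exon, SRSF6 used its distal pA less after UV and its main pA less at 2 h, in calls that held before adjustment only. The comparison of the 2 most abundant pAs (3ʹUTR-APA) used chr20:42090331 as the proximal and chr20:42092245 as the distal pA, 1914 nt apart. The proximal pA had 29, 36 and 16 reads at 0, 0.5 and 2 h, and the distal pA 21, 8 and 6. The proximal share was 58%, 81.8% and 72.7%, lowest before UV. The proximal share rose by 0.5 h (p = 0.0147, adjusted p = 0.209, Fisher's exact test), and the 0.5–2 h and 0–2 h comparisons gave p = 0.524 and 0.296.

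Other SRSF6 pAs of this exon, picked out after their values were seen, had more reads at 2 h. The pA at chr20:42090418, only 87 nt downstream of the main one, had 2, 7 and 14 reads, and chr20:42089550, 781 nt upstream of it, had 5, 8 and 14. When each pA was set against the other 3ʹ-most-exon pAs of the gene, a comparison added after the data were seen, the share of the main pA fell from 57.1% at 0.5 h to 27.1% at 2 h (p = 9.83e-04, adjusted p over all such pAs 0.0501, Fisher's exact test). From 0 to 2 h, by Fisher's exact test, the share of the distal pA fell from 35.6% to 10.2% (p = 0.00180, adjusted p = 0.0769), and that of chr20:42090418 rose from 3.39% to 23.7% (p = 0.00217, adjusted p = 0.0855). None of these passed after adjustment. The 3ʹ-most-exon pAs of SRSF6 with reads numbered 6, 8 and 8 at 0, 0.5 and 2 h, and the intronic ones 1, 0 and 7.

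SRSF2 differed at 1 upstream pA in the 0.5 h library. Its main pA, chr17:74730200, had 74, 83 and 78 reads, and the proximal pA 719 nt upstream, chr17:74730919, had 1, 12 and 2. The proximal share of these 2 pAs was 1.33%, 12.6% and 2.50%, high at 0.5 h alone. It rose by 0.5 h (p = 0.00694, adjusted p = 0.143, Fisher's exact test) and fell from there to 2 h (p = 0.0222, adjusted p = 0.20, Fisher's exact test). Both calls rest on the 12 reads of the shared 0.5 h library.

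**Figure D3:**
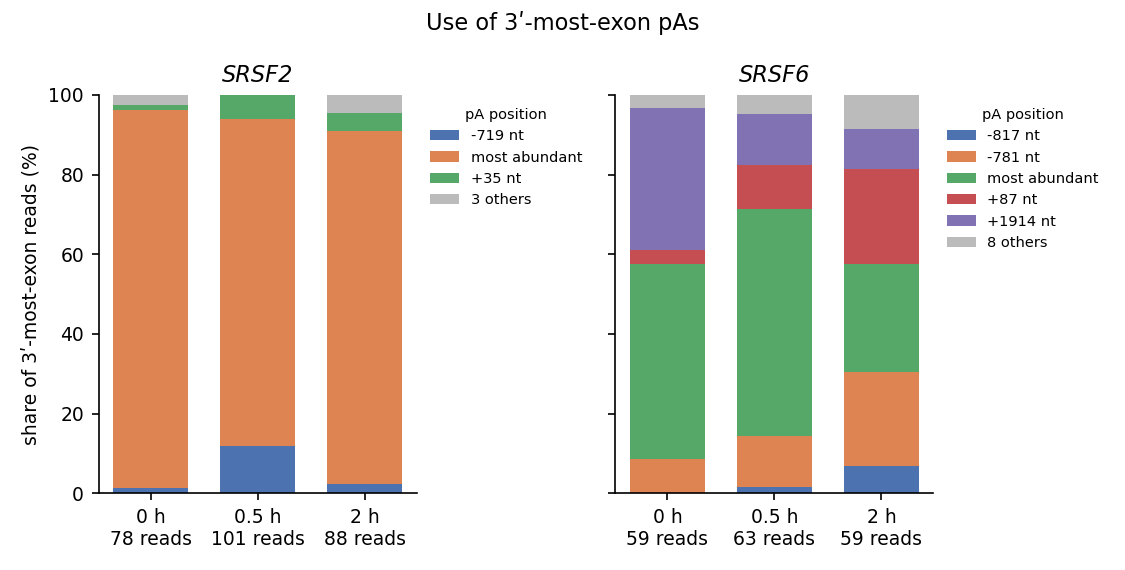
Shares of the 3ʹ-most-exon reads (y axis, %) taken by each pA with at least 5 reads in SRSF2 and SRSF6 (1 panel each) at 0, 0.5 and 2 h, with the pA position relative to the most abundant pA and rarer pAs pooled in grey. The share of the SRSF2 pA 719 nt upstream is 11.9% at 0.5 h, and in SRSF6 the pA 1914 nt downstream goes from 35.6% to 12.7% and 10.2%.

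The other SR genes gave no 3ʹUTR-APA call. SRSF7 kept nearly all of its 3ʹ-most-exon reads at chr2:38972035, with 144, 71 and 82 reads against 3, 3 and 1 at the distal pA 1287 nt downstream. SRSF5 used 2 pAs 194 nt apart, with 8, 1 and 12 reads at the proximal and 8, 1 and 7 at the distal one. For SRSF11 and SRSF4 a single pA dominated, with 11, 14 and 11 reads and 7, 16 and 9 reads. TRA2A had 0, 2 and 3 reads at its proximal pA and 3, 2 and 3 at the pA 219 nt downstream.

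By 0.5 h, 2 of 6 testable SR genes were called for 3ʹUTR-APA, beside 12.2% of 3382 genes, and 0 after adjustment, beside 2.10%. From 0.5 to 2 h, 1 of 7 was called, beside 15.5% of 3084 genes, and 0 after adjustment, beside 2.69%. The 0–2 h comparison called 0 of 7, beside 12.6% of 3246 genes, and the smallest p was 0.296 (SRSF6, Fisher's exact test). The single pAs called in SR genes numbered 3 of 27 in the first window, beside 9.04% of all tested 3ʹ-most-exon pAs, 2 of 28 in the second, beside 11.7%, and 4 of 31 over 0 to 2 h, beside 9.26%, with 0 after adjustment in each. The shares of single pAs called lay near the background.

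The level of the SR genes changed in SRSF7 and SRSF5. For expression, the reads of every pA of a gene were added and tested against the rest of the library (two-sided Fisher's exact test, Benjamini-Hochberg adjusted over all genes) and called at an adjusted p under 0.05 and a log2 RPM ratio beyond 1 or -1. SRSF7 had 150, 74 and 90 reads in the 0, 0.5 and 2 h libraries, which is 346, 147 and 205 RPM. It was highest before UV, and its intervals after UV, 116–185 and 165–253 RPM, lay below the 293–406 RPM of 0 h. The level fell 2.35-fold by 0.5 h (interval 1.77–3.15, log2 RPM ratio -1.23, adjusted p = 4.12e-08, Fisher's exact test). At 2 h it was still 1.69-fold lower than at 0 h (1.29–2.21, log2 ratio -0.75, adjusted p = 0.00105, Fisher's exact test), which is under the fold threshold. Counting 3ʹ-most-exon reads alone, the level at 2 h was 1.83-fold lower (1.39–2.42).

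SRSF5 was low in the 0.5 h library alone. The 3 libraries held 16, 2 and 22 reads of this gene, or 36.9, 3.99 and 50.2 RPM. It fell 9.27-fold by 0.5 h (2.18–83.1, log2 ratio -3.18, adjusted p = 0.00434, Fisher's exact test) and rose 12.6-fold between 0.5 and 2 h (3.10–111, log2 ratio 3.62, adjusted p = 1.13e-04). Both comparisons rest on the same 2 reads at 0.5 h. The 2 h level was 1.36 times that of 0 h (0.682–2.77, adjusted p = 0.728, Fisher's exact test).

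**Figure D4:**
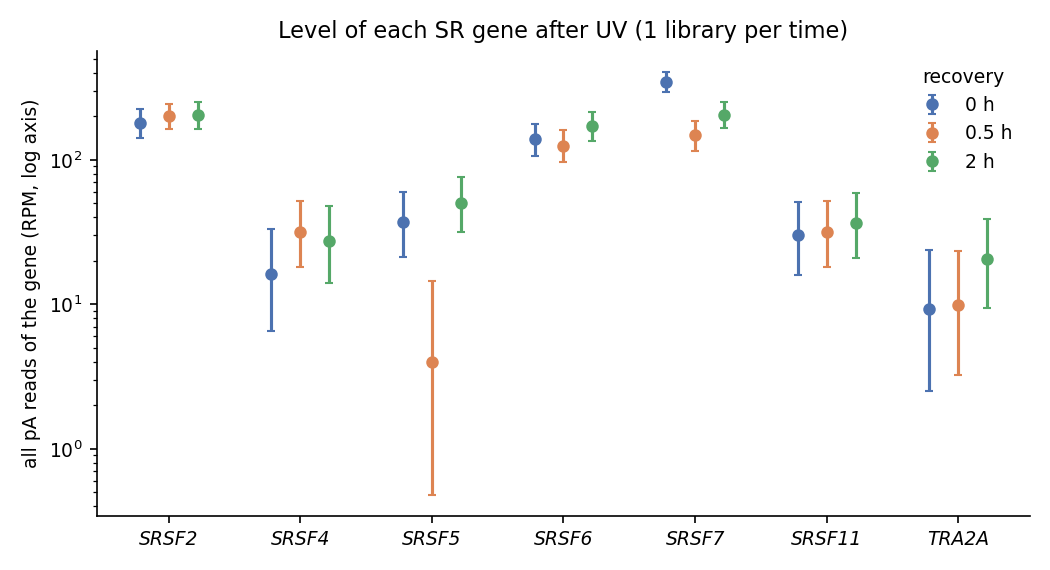
Level of each SR gene over all its pAs (y axis, RPM, log axis) at 0, 0.5 and 2 h, with exact 95% Poisson intervals. The SRSF7 point at 0 h (346 RPM) is above both later points, and the SRSF5 point at 0.5 h (3.99 RPM) is below the other times.

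No expression call was made for the other genes. SRSF2 had 78, 101 and 89 reads, and its ratio of 2 to 0 h was 1.13 (0.823–1.55). SRSF6 had 60, 63 and 75 reads (1.24, 0.869–1.77). SRSF11 had 13, 16 and 16 reads (1.22, 0.549–2.75), SRSF4 7, 16 and 12 (1.70, 0.615–5.08), and TRA2A 4, 5 and 9 (2.23, 0.621–9.89). The intervals of SRSF4, SRSF11 and TRA2A leave room for changes over 2-fold.

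By 0.5 h, 2 of 7 SR genes fell, beside 4.36% of 8804 genes, and in the 0.5–2 h window 1 of 7 rose, beside 5.37% of 8905 genes. Over the whole course, 0 of 7 were called, beside 12.4% of 9044 genes in either direction, and at an unadjusted p under 0.05 without the fold threshold SRSF7 alone passed. The median log2 RPM ratio of the 7 genes was 0.09, 0.45 and 0.31 in the 0–0.5 h, 0.5–2 h and 0–2 h windows, beside -0.20, 0.11 and -0.02 over all genes. The log2 ratio was above 0 in 4, 6 and 6 of the 7 genes, beside 44.4%, 52.6% and 44.9% of all genes. Genes were not matched on reads, so these medians and counts are given as a description. The 0–2 h intervals of the 6 genes above 0 all include a ratio of 1. Summed over the 7 genes, the RPM ratio was 0.729 (0.619–0.858), 1.29 (1.10–1.53) and 0.944 (0.806–1.11) in the 3 windows.

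Other SR proteins, SR protein kinases, an import factor and SR-related proteins were taken as a list of 39, of which 34 had values. SRSF8, SRSF10, SRSF12, ARGLU1 and SCAF11 were not analysed here. In the 0.5–2 h window, intronic shares rose in 6 of 17 testable genes of the list, beside 15.7% of all testable genes. After adjustment 2 of them rose, beside 5.68%. Shares fell in 0 of the 17, and falls were also rare over the table, with 69 of all 3415 testable genes. RBM39, a splicing coactivator, had 1 intronic of 157 reads at 0.5 h and 9 of 45 at 2 h (0.637% and 20%, adjusted p = 5.41e-04, Fisher's exact test). LUC7L2, a U1 snRNP-associated protein, went from 0 of 12 to 6 of 10 (adjusted p = 0.0449, Fisher's exact test), and had 5 of 5 intronic reads at 0 h. PRPF4B, a spliceosomal kinase (3 of 34 to 4 of 10), and LUC7L3 (0 of 15 to 3 of 9) were called before adjustment only (p = 0.0367 and 0.0415, Fisher's exact test). In PRPF4B the intronic reads were 3 and 4, while the 3ʹ-most-exon reads fell from 31 to 6. Against 0 h, 4 of 18 rose, beside 15.7%, and 1 of them (RBM39) after adjustment, beside 5.64%. By 0.5 h, 0 of 15 rose, beside 6.20%, and LUC7L2 fell, as did 82 of all 2612 testable genes.

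For 3ʹUTR-APA, PNN, which encodes the SR-related speckle protein pinin, moved to its proximal pA between 0.5 and 2 h, from 2 of 40 to 22 of 42 reads (adjusted p = 2.74e-04, Fisher's exact test). SRPK1, an SR protein kinase that prepares SR proteins for nuclear import, went from 51.4% to 84.8% proximal reads, and BCLAF1 from 48.5% to 22.6%, both called before adjustment only (adjusted p = 0.0944 and 0.0724, Fisher's exact test). Calls were made in 3 of 11 listed genes that could be tested in this window, beside 15.5% of all genes. They numbered 1 of 14 from 0 to 2 h, beside 12.6%, and 0 of 15 by 0.5 h, beside 12.2%. With so few genes, these counts do not show a difference from the background share.

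Levels were called in 0 of 33 genes of the list by 0.5 h, beside 6.51% of all genes in either direction. From 0.5 to 2 h, 1 of 33 rose, beside 5.37%, and 4 fell, beside 4.83%. From 0 to 2 h, 3 of 34 rose, beside 4.84%, and 2 fell, beside 7.55%. RBM39 fell from 161 reads at 0.5 h to 45 at 2 h (log2 RPM ratio -1.64, adjusted p = 1.57e-11, Fisher's exact test), and SCAF8 and PRPF4B also fell (log2 RPM ratio -2.12 and -1.57). U2AF1, the small U2AF subunit that reads the AG of the 3ʹ splice site, rose from 34 to 102 reads (log2 RPM ratio 1.78, adjusted p = 1.30e-09, Fisher's exact test). SRSF9, the SR protein SRp30c, had 76 reads at 0 h and 214 at 2 h (log2 RPM ratio 1.48, adjusted p = 2.33e-14, Fisher's exact test). SRSF9 was the 1 of the 4 other SR genes of the list with values.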

How the data were processed

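Nuclear RNA of RKO cells at 0, 0.5 and 2 h after UV irradiation was profiled by 3ʹREADS, with 1 library per time point. Per the labels, CASAVA, Bowtie2 and hg19 were used, without versions. Reads ending in 2 or more non-genomic As counted as pA-supporting for the authors, and the deposited table gives each pA in RPM with its gene and its class (intron, upstream exon or 3ʹ-most exon). How pAs were clustered is not given in the sources used here. All RPM values divided by that of 1 read were whole to within 4.00e-11, so reads were recovered and tested.

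Fisher's exact tests ran over the whole table in Python 3.11.15 with scipy 1.17.1, numpy 2.4.6 and pandas 2.3.3 (figures: matplotlib 3.10.9), with 0.1 RPM added before log2. The functions were tested on simulated data. Testable genes had reads of both kinds over the 2 libraries and reads in each. The 2 pAs of 3ʹUTR-APA were ranked over the 3 libraries.

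The rule for named items took all SR genes, their 2 most abundant 3ʹ-most-exon pAs, intronic pAs with at least 5 reads, and up to 4 called genes of the other list per test and window. Other pAs were named after their values were seen. The members and lists were chosen with earlier results of these data known. Alternatives covered adjustment, thresholds, low reads, thinning to 433093 reads, the pAs compared, scaling and the value added. The RKO-E6 and HCT116 cells of the study are not analysed here.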

Additional observations from a re-analysis of the deposited data

How the results depend on the processing

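Depth limits most of these results: outside SRSF2, SRSF6 and SRSF7 no SR gene exceeded 22 reads in a library, and no library could be left out because each time point has only 1. No paired analysis was possible because each time point has 1 library. For intron-APA, 3 SR genes were called in the 0.5–2 h window, against 1 with adjusted p, 1 at p under 0.01, 1 with the most abundant intronic pA alone (SRSF7) and 1 without it (SRSF6). Between 0 and 2 h, the 3 calls became 1 under each of the last alternatives, and the single intronic pA called in either window became 0 with adjusted p. For 3ʹUTR-APA, the 2 calls of the 0–0.5 h window became 0 with adjusted p, 1 at p under 0.01, 1 after thinning (SRSF6 lost, p = 0.0655, Fisher's exact test) and 0 when the most upstream and downstream pAs were compared. The 1 call of the 0.5–2 h window became 0 with adjusted p, 0 at p under 0.01, 0 for the outermost pAs and 2 with pAs ranked within the window, where SRSF6 was added to the SRSF2 fall with a rise of its proximal pA (chr20:42089550 against chr20:42090331, 18.2% to 46.7%, p = 0.0108, adjusted p = 0.142, Fisher's exact test). The 0 calls between 0 and 2 h became 1 for the outermost pAs, a rise in SRSF6 (chr20:42089514 against chr20:42092245, 0 of 21 to 4 of 10 reads, p = 0.00667, adjusted p = 0.0784, Fisher's exact test). The 3, 2 and 4 single 3ʹ-most-exon pAs called in the 3 windows became 0 with adjusted p. For expression, a minimum of 10 reads in each library left 1 of 2 calls in the first window and 0 of 1 in the second, since SRSF5 had 2 reads at 0.5 h, and without the fold threshold the 0 calls between 0 and 2 h became 1 (SRSF7). Scaling by the median of ratios moved log2 RPM by -0.06, 0.01 and 0.04 at 0, 0.5 and 2 h and changed no expression count. No direction of a called gene reversed. The cause of the differences between settings was not tested.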

Other observations

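A few reads lay downstream of the usual end of SRSF6. The 4 pAs beyond chr20:42092245, between 3305 and 11186 nt downstream of the main pA at chr20:42090331, had 0 reads at 0 h, 2 at 0.5 h and 3 at 2 h. These pAs are in the table through reads at 0.5 h or 2 h alone. All are assigned to the 3ʹ-most exon of SRSF6, and the numbers are too small for a comparison.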
